A study of Homo sapiens with 6 samples.

Results

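The cadherins and protocadherins are adhesion proteins of the cell surface. A classical cadherin binds the same cadherin on a neighbouring cell through extracellular repeats that need calcium, and its cytoplasmic tail is tied to actin through the catenins. CDH1 is the cadherin of epithelia, CDH2 that of neural and many mesenchymal cells, and type II cadherins such as CDH6, CDH11 and CDH12 are expressed by sets of neurons and mesenchymal cells. CDH13, or T-cadherin, stands apart, since it has no transmembrane or cytoplasmic part, is held by a glycosylphosphatidylinositol anchor and binds adiponectin. The protocadherins carry more repeats and bind catenins weakly or not at all. Most of them lie in the alpha, beta and gamma clusters on chromosome 5, where each neuron expresses its own choice of promoters.

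The genes described here were chosen by symbol, as CDH followed by a number or any symbol that begins with PCDH, among the array probes whose RefSeq accession gives a gene. They were 86 genes, of 20503 genes named on the array. They comprised 23 cadherins with 27 probes and 63 protocadherins with 80 probes, and 50 of the protocadherins belonged to the clusters. The family was taken up because of CDH13, whose signal in this same comparison was already known, so that the values of CDH13 are given as a description and without a test, and CDH13 is left out of the counts of members. The other members were chosen by symbol alone, and the tests below are of them.

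RNA came from the A673 Ewing sarcoma cell line with a tetracycline repressor (TR), as 3 cultures of A673/TR/empty, which carry the vector with no LOX insert and are called control, and 3 cultures of A673/TR/LOX-PP, which carry the propeptide of lysyl oxidase under a doxycycline-inducible promoter. The cultures were exposed to doxycycline for 72 h according to the labels, which repeat this for all 6 samples, whereas the methods name it clearly for A673/TR/LOX-PP, so that the treatment of the control cultures is not settled. Both lines were made by separate transduction and selection, the methods say that clones with high induced expression were taken further without naming the cells hybridised, and the insert and the selected cells cannot be told apart. Each RNA was hybridised to its own 1-colour Agilent array.

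A few facts of the whole series touch these values. The arrays held 50599 gene probes, and the share of gene spots that the scanner software flagged as well above background ran from 56.9% to 74.8%. Background was uneven, the negative control spots having a net signal from 64.4 to 575, and LOX-PP replicate 1 was on slide 2 and scan 2, apart from the other 5 arrays. LOX itself has a single probe, with log2 signals of -0.09, 0.36 and 0.10 in control and of -0.12, -0.69 and -1.29 in LOX-PP. The signal of this probe was therefore not higher where the propeptide was to be induced (adjusted p = 0.217). Its position relative to the propeptide insert is not known, so it does not show whether the insert was expressed. The paper reported the induced propeptide mRNA by RT-PCR and the protein in the culture medium. LOX-PP arrays means the arrays labelled A673/TR/LOX-PP throughout. All 8 Ewing sarcoma markers examined, CD99 and NR0B1 among them, were well above background on all 6 arrays, and 1 of them, PAX7, fell by 2.05 (adjusted p = 0.0121), beside the cadherins that fell; its part in them was not tested. In bulk RNA, fewer cells of a kind and less RNA per cell cannot be told apart.

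Signals are given as log2 of the background-corrected signal minus the 75th percentile of the array, and they are compared between arrays for 1 probe, never between probes. Probes flagged as well above background on 3 or more arrays, 32609 in number, entered the limma test, and the median difference between LOX-PP and control over all of them was 0.13 on the log2 scale (-0.03 under quantile normalization). Each difference below is relative to that median, with LOX-PP minus control as the direction. A probe passed the test at a Benjamini-Hochberg adjusted p under 0.05 over all tested probes, and this level was reached by 1848 probes, 5.67% of those tested (3.31% higher and 2.36% lower in LOX-PP). The split depends on the scaling, since quantile normalization gave 908 higher and 981 lower, against 1079 and 769.

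The 5′ regions of genes on which the results turn are shown first, as far as the RefSeq promoter table holds them, which was the case for 63 of the 86 genes. Clustered protocadherin genes start from alternative promoters that share a short element with the core CGCT, near which the factor CTCF binds. The stretches run from 90 bases before the start to 10 after it (GRCh38.p14, plus strand). The alpha genes shown are PCDHA1, which rose on the LOX-PP arrays, and PCDHA6 and PCDHA7, which did not pass the test, with GTCGCT in capitals.
PCDHA1, chr5:140786050-140786149: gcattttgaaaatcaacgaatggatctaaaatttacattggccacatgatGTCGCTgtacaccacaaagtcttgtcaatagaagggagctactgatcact
PCDHA6, chr5:140827870-140827969: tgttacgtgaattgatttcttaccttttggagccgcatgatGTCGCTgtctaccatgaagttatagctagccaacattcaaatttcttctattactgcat
PCDHA7, chr5:140834179-140834278: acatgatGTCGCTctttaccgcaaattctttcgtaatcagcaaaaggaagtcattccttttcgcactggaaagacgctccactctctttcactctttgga

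The beta genes shown over the same stretch are PCDHB8, which rose, and PCDHB5 and PCDHB13, which did not pass the test, with TGGCGCT in capitals.
PCDHB8, chr5:141177700-141177799: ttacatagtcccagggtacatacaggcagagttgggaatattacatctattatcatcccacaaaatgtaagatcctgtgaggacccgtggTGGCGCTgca
PCDHB5, chr5:141135116-141135215: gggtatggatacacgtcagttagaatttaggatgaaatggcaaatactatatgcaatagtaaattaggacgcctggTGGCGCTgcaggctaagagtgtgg
PCDHB13, chr5:141213829-141213928: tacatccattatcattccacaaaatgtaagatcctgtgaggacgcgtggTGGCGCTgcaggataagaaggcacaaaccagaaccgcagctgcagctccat

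The letters were searched on both strands of 35116 RefSeq promoters of 300 bases, and were chosen after looking at the cluster promoters. GTCGCT was found in 11 of 13 alpha, 2 of 14 beta and 6 of 25 gamma promoters, and in 7.97% of all promoters. TGGCGCT was found in 0 of 13 alpha, 13 of 14 beta and 5 of 25 gamma promoters, and in 4.08% of all. The shared core CGCT, which lies within both, is too short to tell them apart, at 70.0% of all promoters. The element is thus present in the genes that rose and in their neighbours that did not pass alike, which is a description of letters and not of binding.

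Among the cadherins that fell, RefSeq promoters were found for CDH2, CDH4 and CDH12. The promoter listed first for CDH2 and for CDH4 is shown, and which promoter gives the transcript that the probes detect was not examined. The letters searched for are the E-box CAGGTG. It is bound by the repressors SNAI1, SNAI2, ZEB1 and ZEB2, whose signals are given further on. CDH2 is on the minus strand and CDH4 on the plus strand of GRCh38.p14, and capitals mark the E-box on either strand.
CDH2, chr18:28177081-28177380: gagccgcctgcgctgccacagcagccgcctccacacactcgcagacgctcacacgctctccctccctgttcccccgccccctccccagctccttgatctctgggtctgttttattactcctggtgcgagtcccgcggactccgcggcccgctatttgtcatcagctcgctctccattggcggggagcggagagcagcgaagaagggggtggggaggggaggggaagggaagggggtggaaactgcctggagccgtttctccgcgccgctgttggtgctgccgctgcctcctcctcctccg
CDH4, chr20:61499171-61499470: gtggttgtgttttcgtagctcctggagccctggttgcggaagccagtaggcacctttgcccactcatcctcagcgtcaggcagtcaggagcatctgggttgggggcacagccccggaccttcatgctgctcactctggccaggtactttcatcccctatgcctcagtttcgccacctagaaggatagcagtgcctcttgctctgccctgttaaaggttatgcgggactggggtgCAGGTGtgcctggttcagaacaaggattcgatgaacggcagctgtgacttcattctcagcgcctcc
The E-box was found in 0 of 2 CDH2, 1 of 2 CDH4 and 0 of 3 CDH12 promoters, and in 20.6% of all promoters. No match says only that these letters are not in these windows.

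CDH13 was at background on all 3 control arrays and well above it on all 3 LOX-PP arrays, with both of its probes. The probe of NM_001220491 had log2 signals of -6.15, -5.95 and -6.21 in control and -0.67, -0.27 and -0.23 in LOX-PP. For the probe of NM_001257 they were -8.18, -7.72 and -6.09 in control and -0.80, -1.61 and -0.47 in LOX-PP. In both, every LOX-PP array lay above every control array, and the 3 control arrays varied more in the second.

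Since the control arrays give only a bound, the rise of CDH13 was set against the lowest signal well above background on each control array. The size depends on the uneven background. Where all arrays were given the highest of their floors, the signal relative to all probes was at least 9.48-fold higher on the LOX-PP arrays with the first probe and at least 6.39-fold higher with the second. Against the mean of the control arrays' own floors the values were 25.9-fold and 17.5-fold. The signals as measured differed by 5.72 and 6.37 on the log2 scale before the median of all probes was taken off, and by 3.31 and 2.74 with the common floor. Of all 50599 probes, 0.154% were well above background on all LOX-PP arrays and no control array, and among the family probes only the 2 of CDH13 had this pattern, the other 105 not having it. No family probe had the opposite one.

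Of the 105 other family probes, 61 were well above background on all 6 arrays, 33 on some and 11 on none, and 84 entered the test. CDH1, CDH17, CDH20, PCDH9, PCDHA2, PCDHB7 and the pseudogene PCDHB19P were the 7 genes with no probe above background on any array. The test was passed by 9 probes of 8 genes, which is 10.7% of the 84 beside the background of 5.67%. Lower were 7 probes, 8.33% beside 2.36%, and higher were 2 probes, 2.38% beside 3.31%. The lower ones were CDH2 with both probes, CDH4, CDH6, CDH12, CDH24 and PCDH20, and the higher ones PCDHA1 and PCDHB8. All 9 probes were well above background on all 6 arrays, so that none of them entered the test through 1 group alone. The count fell to 4 without control replicate 1 or without control replicate 2, to 4 in the methods' t-test and to 5 with no filter on dim probes. CDH2 with both probes and CDH12 among the lower genes, and PCDHA1 among the higher ones, passed under every alternative tried, with adjusted p of at most 0.0399.

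**Figure D1:**
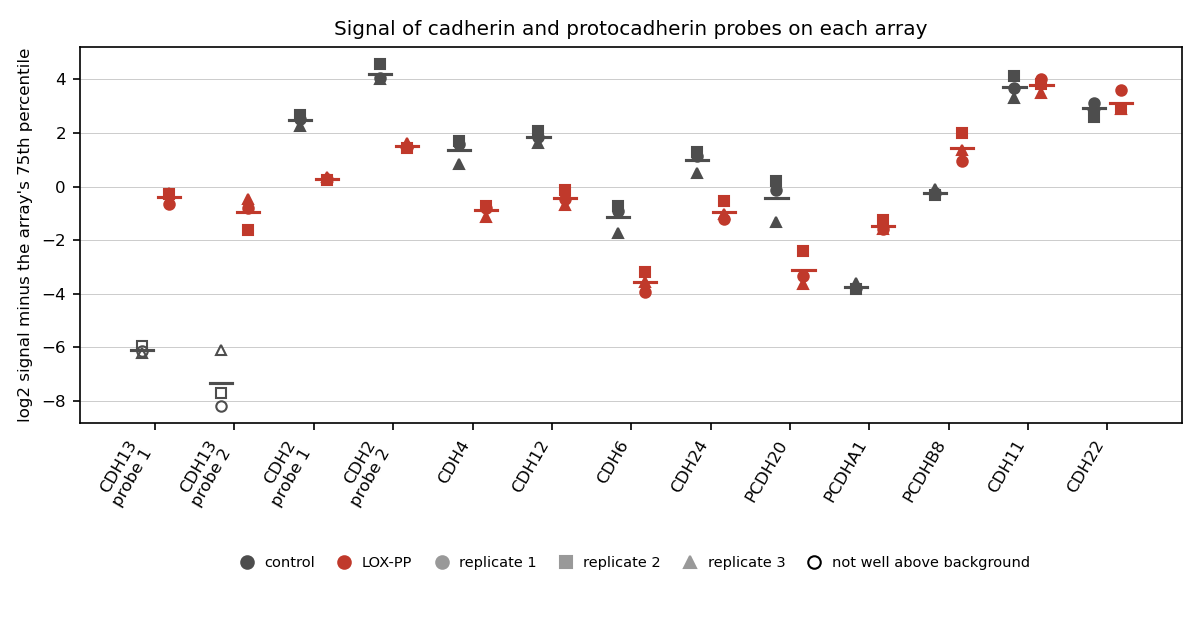
The log2 signal minus the array's 75th percentile of 13 probes is plotted for each of the 3 control (grey) and 3 LOX-PP (red) arrays, with a bar at the group mean, a symbol for each replicate and open symbols where no array of the group was well above background. CDH13 goes from background to between -1.61 and -0.23, CDH2, CDH4, CDH12, CDH6, CDH24 and PCDH20 are lower on every LOX-PP array, PCDHA1 and PCDHB8 are higher, and CDH11 and CDH22 overlap.

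The type I cadherins, the classical ones, were led by CDH2, or N-cadherin. The probe with the larger difference had log2 signals of 4.04, 4.57 and 4.0 in control and 1.46, 1.42 and 1.61 in LOX-PP. The groups did not overlap, and the LOX-PP arrays lay close together (1.5 ± 0.10, SD, n = 3). CDH2 fell by 2.83 relative to all probes (adjusted p = 0.00229), and its second probe, with 2.52, 2.66 and 2.26 against 0.28, 0.24 and 0.36, fell by 2.31 (adjusted p = 0.00324). Both probes carry the same accession, and within slide 1, without LOX-PP replicate 1, their differences were -2.85 and -2.34.

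CDH4, or R-cadherin, a close relative of CDH2 of the retina and brain, gave 1.58, 1.70 and 0.85 in control and -0.81, -0.72 and -1.14 in LOX-PP. It fell by 2.40 (adjusted p = 0.00846), with control replicate 3 the lowest of its group and still above all LOX-PP arrays. The call was lost without control replicate 1 (adjusted p = 0.0641), without control replicate 2 (adjusted p = 0.0535) and in the methods' t-test. The other type I genes did not pass. CDH1, or E-cadherin, was at background on every array and was not tested. CDH3, or P-cadherin of basal epithelia, was well above background on 2 of 3 arrays in each group, with a difference of 0.63 (95% interval -0.47 to 1.73), and CDH15, or M-cadherin of muscle, differed by -0.36 (-1.57 to 0.85).

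Of the 13 type II genes, 10 were tested with 1 probe each, 3 fell, none rose and 7 did not pass. CDH12, a cadherin of the brain, had log2 signals of 1.84, 2.07 and 1.63 in control and -0.47, -0.14 and -0.69 in LOX-PP. It fell by 2.41 (adjusted p = 0.00438), and the lowest control array was well clear of the highest LOX-PP array. CDH6, or K-cadherin, of kidney and neural crest, gave -0.93, -0.73 and -1.72 against -3.94, -3.19 and -3.56, and fell by 2.56 (adjusted p = 0.0117).

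CDH24 gave 1.13, 1.28 and 0.51 in control and -1.23, -0.53 and -1.04 in LOX-PP. It fell by 2.04 (adjusted p = 0.0179), with groups that did not overlap. The calls of CDH6 and CDH24 were lost without control replicate 1 or 2, in the methods' t-test and with no filter on dim probes, and that of CDH24 also without LOX-PP replicate 3. Without LOX-PP replicate 1 both passed.

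The type II genes that did not pass included cadherins with clear signal on every array. CDH11, the cadherin of osteoblasts and mesenchyme, had log2 signals of 3.66, 4.11 and 3.32 in control and 4.01, 3.84 and 3.48 in LOX-PP, which overlap. Its difference was -0.05, with a 95% interval from -0.72 to 0.63. CDH22 differed by 0.09 (-0.59 to 0.77), and CDH5, or VE-cadherin of endothelium, by -0.05 (-0.59 to 0.50). The intervals of these genes leave out a fall of the size seen in CDH2. CDH10 (-0.79, adjusted p = 0.267) and CDH7 (-0.75, adjusted p = 0.166) were below the median of all probes without passing, and CDH7 passed under quantile normalization (adjusted p = 0.0425). CDH8 differed by -0.32 and CDH18 by 0.60, with wide intervals.

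Tested cadherins on the same chromosome as a cadherin that fell, or as CDH13, are set side by side here. On chromosome 5, CDH6 and CDH12 fell, CDH10 did not pass at -0.79 and CDH18 was at 0.60. On chromosome 20, CDH4 fell, CDH22 was at 0.09 and the dim CDH26 was at 1.4 without passing. On chromosome 16, which holds CDH13, CDH11 and CDH5 were at -0.05, CDH8 at -0.32 and CDH15 at -0.36. CDH3 and CDH16 there were at 0.63 and 1.01, and none of these passed. On chromosome 18, CDH2 fell and CDH7 was at -0.75 without passing. The median difference of all genes of these chromosomes, 1 probe per gene, was -0.02 for chromosome 5, 0.00 for chromosome 20 and -0.10 for chromosome 16, relative to all probes, and -0.22 for chromosome 18 with CDH2. For chromosome 14 with CDH24 it was -0.09. The part of the chromosomes in these values was not tested.

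Beside CDH13, the atypical cadherins were CDH16, CDH17, CDH23 and CDH26, and 0 of their 5 tested probes passed in limma or in the methods' t-test. In each test 1 of them had an unadjusted p under 0.05, a level reached in limma by 21.3% of all tested probes. CDH23, a cadherin of the hair bundle of the inner ear, has 3 probes that differed in size. They were at -1.32 (95% interval -2.11 to -0.53, adjusted p = 0.0949), -0.38 and -0.28. In the first the LOX-PP arrays, with -1.84, -0.76 and -0.84, were all below the control arrays, with 0.06, 0.20 and -0.13, whereas the other two overlapped. CDH16 and CDH26 were each well above background on 1 control and 2 LOX-PP arrays, and CDH17 on none.

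**Figure D2:**
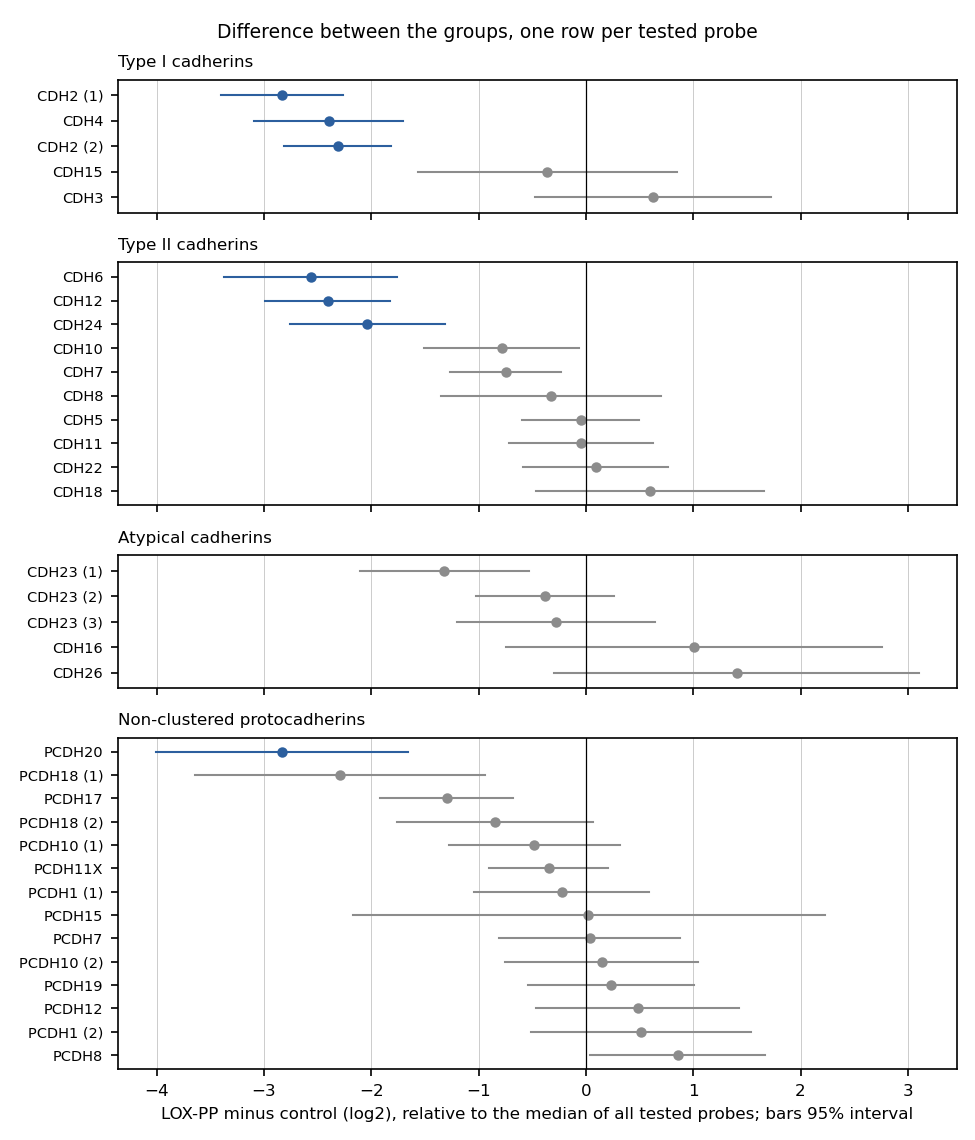
Each row is a tested probe, with the LOX-PP minus control difference on the log2 scale relative to the median of all tested probes and its 95% interval as a bar; blue probes were lower and passed the test, and grey probes did not pass. CDH13 and PCDH11Y are left out, several probes of a gene are numbered, and the probes that passed lie between -2.83 and -2.04.

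The non-clustered protocadherins were 13 genes with 22 probes, 17 of them tested. PCDH20 was the single one to pass, with log2 signals of -0.12, 0.21 and -1.34 in control and -3.34, -2.39 and -3.64 in LOX-PP. It fell by 2.83 (adjusted p = 0.0279), with a wide spread in both groups and no overlap. The call was lost in 8 of the alternatives, among them without LOX-PP replicate 1, that is within slide 1 (difference -2.76, adjusted p = 0.0586), and without control replicate 1, control replicate 2 or LOX-PP replicate 3. The slide as a block, also counted among the 8, is the same fit as leaving out LOX-PP replicate 1.

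PCDH17, a protocadherin of axons in the brain, lay just outside the threshold. Its log2 signals were 0.05, -0.03 and -0.54 in control and -1.62, -1.10 and -1.30 in LOX-PP, a difference of -1.30 (adjusted p = 0.0517). It passed under quantile normalization and when the probes had to be well above background on all arrays. PCDH8, in contrast, was at 0.86 (adjusted p = 0.164). PCDH8, PCDH17 and PCDH20 are on chromosome 13, whose 284 genes had a median difference of -0.82 relative to all probes, and its part in the values of PCDH17 and PCDH20 was not tested.

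PCDH18 gave -2.29 (adjusted p = 0.0808) with the probe well above background on all control arrays and 2 LOX-PP arrays, and -0.85 with its other probe. PCDH7 had 3.92, 4.03 and 3.27 in control and 4.28, 4.16 and 3.27 in LOX-PP, a difference of 0.03 (95% interval -0.81 to 0.88). The 2 probes of PCDH10, at -0.48 and 0.15, and the 2 of PCDH1, at -0.23 and 0.51, disagreed in sign, and none passed. PCDH11X, PCDH12, PCDH15 and PCDH19 did not pass. PCDH11X has a near-identical copy on the Y chromosome, PCDH11Y, and their 4 probes may detect either transcript, so that their values are uncertain. The PCDH11Y probes were at 1.38, 1.27 and -0.68 and that of PCDH11X at -0.345, and none passed.

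The clustered protocadherins comprised 15 alpha, 18 beta and 17 gamma genes. In the alpha and gamma clusters a transcript can join its own first exon to last exons shared by the cluster. Beta genes are close copies of each other. Signal shared between members is therefore possible and single values are uncertain, the position of the probes within the transcripts not being given. Of 47 tested probes in the clusters, 2 rose, none fell and 45 did not pass, so that 4.26% passed beside 5.67% of all tested probes.

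PCDHA1, the first alpha gene, had log2 signals of -3.80, -3.81 and -3.60 in control and -1.60, -1.25 and -1.60 in LOX-PP. It rose by 2.13 (95% interval 1.62 to 2.64, adjusted p = 0.00307), with little spread within either group and no overlap. The next alpha gene tested, PCDHA3, gave -1.79, -1.49 and -2.16 against -0.75, -0.22 and -0.83, a difference of 1.09 just outside the threshold (adjusted p = 0.0555). PCDHA6 and PCDHA7, whose promoters carry the same element, were at 0.29 and -0.21.

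At the other end of the alpha cluster, PCDHAC2 was at -2.28 with a wide interval (-3.84 to -0.71, adjusted p = 0.12), and it was well above background on all control arrays and 1 LOX-PP array. PCDHA1 at the first position and PCDHAC2 at the last thus had the highest and lowest differences of the 11 alpha genes tested, and only PCDHA1 passed. The values between them did not follow the order of the genes. PCDHA10 was at -0.61 and PCDHAC1 at 0.14, and the probes of PCDHA11 disagreed in sign, at -0.49 and 0.36. The median of the 12 alpha probes was 0.02 and turned to -0.12 under quantile normalization.

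PCDHB8 rose by 1.55 (95% interval 0.83 to 2.26, adjusted p = 0.0267). Its log2 signals were -0.25, -0.32 and -0.10 in control and 0.97, 2.01 and 1.37 in LOX-PP, which do not overlap, the spread being in the LOX-PP arrays. The call was lost in 8 of the alternatives, among them without control replicate 1, 2 or 3 or LOX-PP replicate 2 or 3, with the replicate block and in the methods' t-test. PCDHB6 was at 0.84 (adjusted p = 0.0677), PCDHB14 at 0.71 (adjusted p = 0.235), PCDHB4 at 0.64 (adjusted p = 0.189) and PCDHB5 at -0.02 (-0.64 to 0.59). The pseudogene PCDHB18P, at -0.75, had the lowest value of the cluster. Of the 16 beta probes 13 were above the median of all probes, with a median of 0.29, beside 0 for all probes by construction. The median was 0.16 without LOX-PP replicate 1 and 0.15 without control replicate 3, with 12 and 10 probes above. LOX-PP replicate 2 was the highest array for 10 of the 16 probes (62.5%), compared with 25.1% of all tested probes. Without that array the median was 0.25, with 13 probes above the median of all probes. The part of that array was not tested.

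In the gamma cluster 0 of 19 probes passed in limma or in the methods' t-test, and 3 and 2 had an unadjusted p under 0.05. Of all tested probes, 21.3% had such a p in limma. The differences ran from -0.42 for PCDHGC5 to 1.24 for PCDHGB3, PCDHGB7 was at 0.91 (adjusted p = 0.247), and 17 of the 19 were above the median of all probes, with a median of 0.44. This moved with LOX-PP replicate 1, which was the highest of the 6 arrays for 15 of the 19 probes (78.9%), compared with 23.3% of all tested probes. Without that array the median of the gamma probes was 0.15 and 15 were above the median of all probes. The part of the slide and scan of that array was not tested. The median of the gamma probes also moved with all 6 arrays kept. It was 0.18 with a common floor, where 17 probes were above the median of all probes. Under quantile normalization it was 0.345, with 14 above. What the uneven background gave to these values was not tested. PCDHGA8, with 4.54, 4.21 and 4.21 in control and 4.47, 4.19 and 3.61 in LOX-PP, differed by -0.35 (adjusted p = 0.693).

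**Figure D3:**
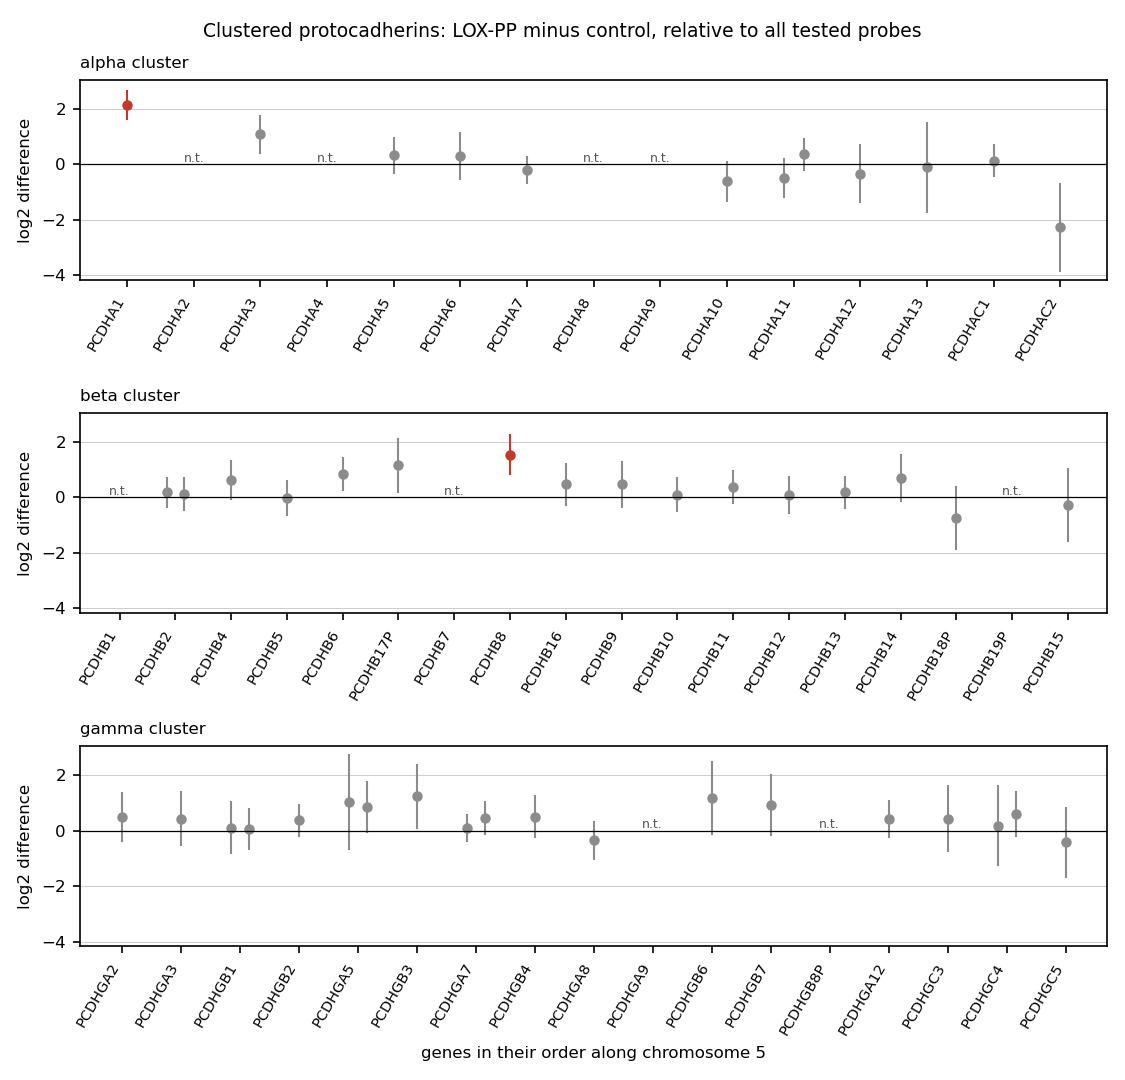
The LOX-PP minus control difference (log2, relative to the median of all tested probes) with its 95% interval is plotted for each tested probe of the alpha, beta and gamma clusters, with the genes in their order along chromosome 5, n.t. for genes with no tested probe and red for probes that passed. PCDHA1 at 2.13 and PCDHB8 at 1.55 are the 2 that passed.

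The genes that work with cadherins were described by a list of 71 genes, written with earlier results known, which covers the catenins, the actin and nectin side of the junction, desmosomal cadherins, other members of the superfamily, phosphatases and proteases, adiponectin with its receptors, and repressors. All 71 had a probe, and 92 of their 111 probes were tested. Past the threshold were 8 probes, among them CTNNA2, which was at background on every control array. Without it, 5 of 91 probes were higher and 2 lower, which is 7.69% beside 5.67% of all probes. The count with CTNNA2 was 2 without control replicate 1, without control replicate 2, with no filter on dim probes, with the replicate block and in the methods' t-test, 3 without control replicate 3 or without LOX-PP replicate 2, and 4 without LOX-PP replicate 3.

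The catenins common to most cells did not pass. CTNNB1 (beta-catenin), which binds the tails of classical cadherins, was at 0.50 and 0.73 with its 2 probes (adjusted p = 0.211 and 0.107), and CTNNA1 (alpha-catenin), which joins it to actin, at -0.50 and -0.22. The 2 probes of CTNND1 (p120-catenin), which keeps cadherins at the surface, disagreed in sign, at -0.69 and 1.06. JUP (plakoglobin), shared with desmosomes, gave 1.77, 0.99 and 1.76 against 2.65, 2.65 and 3.20 and was just outside the threshold at 1.20 (adjusted p = 0.0547).

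CTNNA2 (alpha N-catenin), a catenin of neurons, was at background on all control arrays, with signals from -8.32 to -6.28, and was at -2.68, -2.63 and -3.05 on the LOX-PP arrays. It came into the test only through the LOX-PP arrays, so that its values are a description and no p is given. Relative to all probes the LOX-PP signal was at least 1.80-fold higher with a common floor under all arrays, and 4.92-fold higher than the mean floor of the control arrays. It was the single partner probe of 111 with this pattern, beside 0.154% of all probes. CTNND2 (delta-catenin) had -5.23, -5.39 and -4.89 on the control arrays, 2 of them well above background, and -2.46, -2.06 and -0.97 on the LOX-PP arrays. CTNND2, a second catenin of neurons, rose by 3.21 (adjusted p = 0.00693), a call lost with a common floor under all arrays (adjusted p = 0.0806) and in the methods' t-test (adjusted p = 0.0666).

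On the actin and nectin side, EPS8, which caps and bundles actin, fell by 1.41 (adjusted p = 0.033), and SHROOM3, which drives apical constriction, fell by 1.94 with 1 probe (adjusted p = 0.0227), its other being at -0.42. Both calls were lost with no filter on dim probes, with the replicate block, in the methods' t-test and without control replicate 1 or 2 or LOX-PP replicate 2 or 3, and that of EPS8 also without control replicate 3. The nectins, AFDN and VCL did not pass. Among phosphatases and proteases, 2 of 3 probes of PTPRK, a receptor phosphatase that acts on catenins, rose, by 1.16 and 0.87, and the third was at -0.05, the rises being lost in 7 alternatives each. In the superfamily, CELSR1, a planar polarity cadherin, rose with 1 of 4 probes (1.01, adjusted p = 0.0338), which was well above background on 2 arrays of each group, and the others were at 0.67, 0.28 and 0.54. That call was lost in 11 alternatives, quantile normalization among them. None of the 7 desmosomal cadherins had a tested probe.

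Of the repressors that bind the E-box, ZEB1 rose with 1 of 2 probes (1.24, adjusted p = 0.033), and the other was at 0.88 (adjusted p = 0.122). The call was lost in 8 alternatives, the leaving out of LOX-PP replicate 2 or 3 or of any control array among them. SNAI1 (0.10), SNAI2 (-0.57), TWIST1 (0.62 and -0.08) and the 3 probes of ZEB2 (from -0.20 to 0.11) did not pass, and TWIST2 was not tested. ADIPOQ, which encodes the adiponectin that CDH13 binds, was well above background on 1 control and 3 LOX-PP arrays and did not pass at 0.55, and its receptors ADIPOR1 (-0.08 and 0.33) and ADIPOR2 (-0.58) did not pass either.

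**Figure D4:**
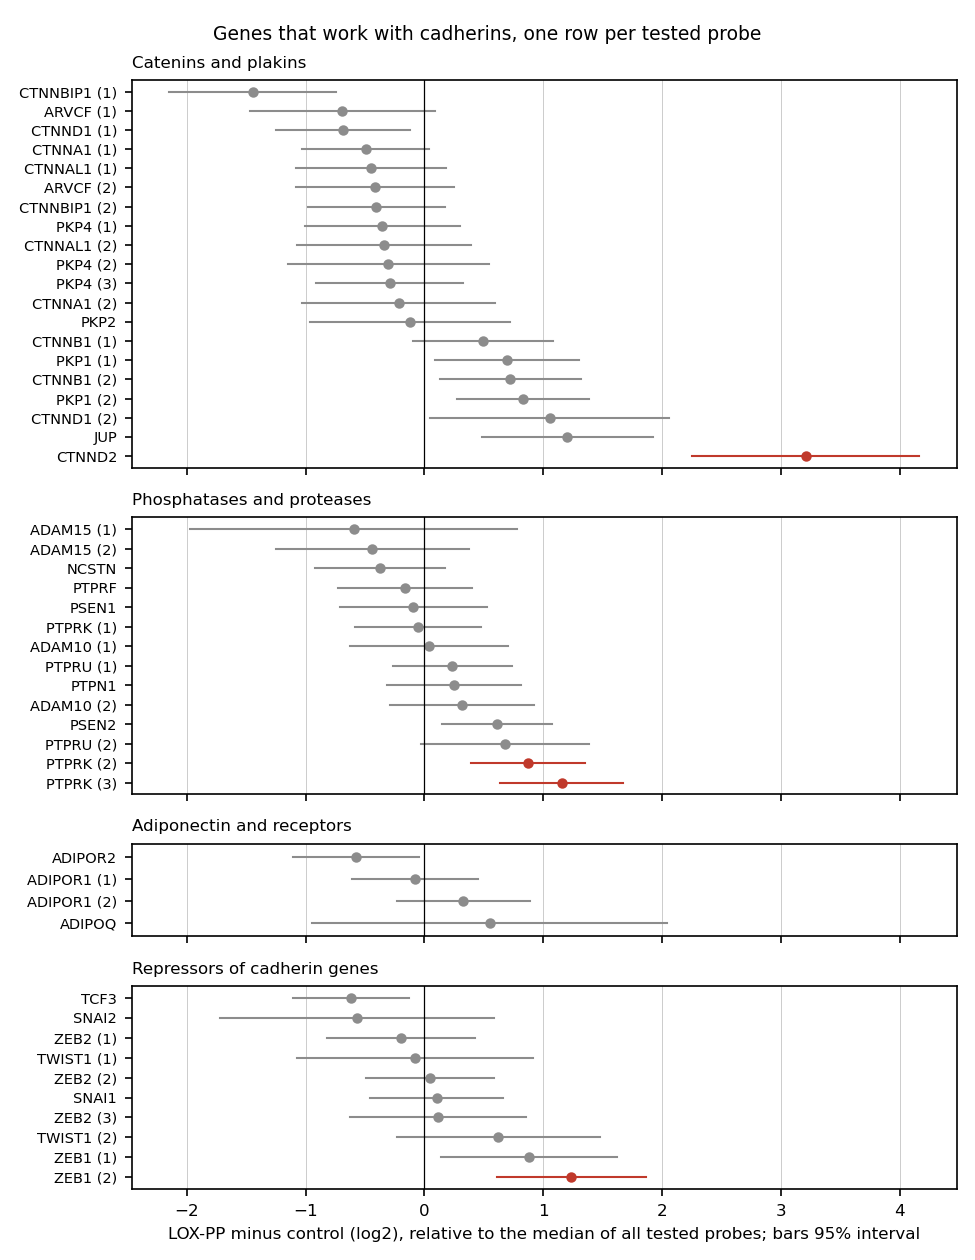
Each row is a tested probe of 4 groups of partner genes, with the LOX-PP minus control difference on the log2 scale relative to all tested probes and its 95% interval; red probes were higher and passed, and grey ones did not pass. CTNND2, PTPRK (2 probes) and ZEB1 (1 probe) passed, and CTNNA2 is left out because its control signals were at background.

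Markers of other cell types were examined beside the family, 1 probe per gene. Of 6 epithelial markers, KRT14, a keratin of basal epithelia, and CLDN4, a claudin of tight junctions, passed the test, with rises of 5.13 and 2.08. The log2 of the summed signal of the list, to which KRT14 gave most in LOX-PP, was from -1.16 to -0.68 on the control arrays and from 2.23 to 2.54 on the LOX-PP arrays. EPCAM (0.49) and KRT19 (-1.01) did not pass, and KRT5 and CDH1 were at background on all arrays. GRHL2 was well above background on 3 control and 0 LOX-PP arrays. It came into the test only through the control arrays, so that no difference is given for it. Of 4 fibroblast markers, COL1A2 (-3.04) and LUM (-2.42) fell, whereas PDGFRB (-0.53) and DCN (-0.80) did not pass. The LUM probe was dim, being well above background on 2 arrays in control and 1 in LOX-PP. Its signals in LOX-PP replicates 2 and 3, -5.91 and -5.34, were under the floors there, -3.70 and -4.48. How far LUM fell is thus uncertain. The log2 of the summed signal of the 4 fibroblast markers was from 5.24 to 5.49 on the control arrays, where COL1A2 gave most. It was from 2.91 to 3.41 on the LOX-PP arrays. Of 5 endothelial, 5 blood and 4 muscle markers 12 were tested, and 0 passed in limma or in the methods' t-test, with 2 and 1 at an unadjusted p under 0.05. That level was reached in limma by 21.3% of all tested probes. The part of the cells or states that these lists mark in the values of the cadherins was not tested.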

How the data were processed

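The authors deposited the scanner output of 6 arrays, with spot intensity extracted and corrected for background by Agilent Feature Extraction (version 10.7, per the labels), and processed log2 values. Without outlier and control spots, the log2 signal of each probe was the mean of its spots, scaled by taking off the 75th percentile of its array. The authors' log2 values matched these within 0.0059 after centring. Probes were named by RefSeq accession (28174 of 50599), and the array design's genome build differs from that of the RefSeq table (GRCh38.p14), so that no probe coordinates are given. Depth does not apply to arrays, and the 3 arrays per group limit the precision. Replicates were independent experiments per the methods of the study.

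Probes that the software flagged as well above background on 3 or more of 6 arrays were tested with limma (version 3.58.1, R 4.3.3), without a block, and p-values were adjusted over all tested probes. The methods name no test per probe for the arrays: Student's t ranks genes for a gene set analysis there and serves for comparisons of 2 groups in general, so a t-test per probe, called the methods' t-test, was run as an alternative. The test was checked on simulated data. A group at background gives only a bound. Genes named are CDH13, every member past the threshold, CDH1 to CDH6 and CDH11. Named too are the 10 further members with the largest difference among probes well above background on all 6 arrays, PCDH11Y aside. The ends of each cluster, members on in a single group, partners past the threshold and 4 catenins are also named. Further members were named for the comparison after their values were seen. Members and lists were chosen with earlier results of these data known. Alternatives were other scalings, the authors' log2 values, normexp (offset 50) on the median signal, a common floor, other filters, blocks by slide and replicate, the methods' t-test and leaving out each array.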

Additional observations from a re-analysis of the deposited data

How the results depend on the processing

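With 3 arrays per group and an uneven background, dim probes are measured least well. Of 9 family probes past the threshold, 5 passed without a filter on dim probes, 4 in the methods' t-test, and leaving out 1 array gave from 4 to 9. Under quantile normalization 11 passed, with normexp 10, with a common floor 8, and with the stricter filter 12. The count of partner probes past the threshold, 8 with CTNNA2 included, was 2 with no filter and 2 with the replicate block. In the methods' t-test it was also 2, and 1 of these was among the 8. Leaving out 1 array gave from 2 to 11. Whether the replicate numbers pair the samples is not settled. The correlations of deviations between same-numbered samples were 0.26, -0.38 and 0.22, and with 3 arrays per group they cannot decide it. With the replicate block 9 family probes passed, 8 of them as without it. Among all tested probes 859 passed with that block, beside 1848 without it. The slide as a block gave 9 family probes, 8 of them shared with the fit without it, PCDH20 being lost. It is the same fit as leaving out LOX-PP replicate 1, which is alone on slide 2, and so is no separate check. The CDH13 difference was 4.11 and 4.32 with normexp and 3.31 and 2.74 with a common floor. Leaving out 1 array gave from 5.63 to 5.85 for the first probe and from 5.95 to 7.0 for the second. Among the single probes of named genes that were followed through the alternatives, sign changes were found for 4 probes, none of which passed in any alternative. CDH11 (-0.05) was at 0.19 under quantile normalization, 0.02 with a common floor, 0.01 with the stricter filter, and from -0.30 to 0.22 when 1 array was left out. CDH5 (-0.05) was at 0.02 with a common floor, 0.01 with the stricter filter, 0.08 with the slide as a block, and from -0.18 to 0.08 when 1 array was left out. The CDH23 probe at -0.28 ran from -0.69 to 0.01 when 1 array was left out. The CTNNA1 probe at -0.22 was at 0.06 under quantile normalization, 0.11 with the slide as a block, and from -0.49 to 0.11 when 1 array was left out. The cause was not tested.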
